A study of Mus musculus with 9 samples.

Results

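The antioxidant defence genes were examined in mouse germinal center (GC) B cells with intact or deleted Foxo1. They were chosen by name: the superoxide dismutases Sod1 and Sod2, catalase (Cat), the peroxiredoxins Prdx1, Prdx2 and Prdx3, the glutathione peroxidases Gpx1 and Gpx4, thioredoxin (Txn1) and the thioredoxin-interacting protein gene Txnip. Of these 10 genes, among 18193 on the array with a probe set of their own, 9 were analysed through 21 probe sets. The 5 probe sets of Prdx1 were annotated to it together with another gene model, so no value is given for Prdx1. In total, 19 of the 21 probe sets passed the filter on low signals, and these covered all 9 genes.

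Transcripts were measured on 9 Affymetrix arrays, 3 for each of 3 genotypes. The groups were FOXO1+/+ (WT), FOXO1f/+ with 1 floxed allele (HET) and FOXO1f/f with both alleles floxed (KO). Mice of every group, WT included, carried Cg1-Cre, a recombinase expressed once B cells enter the GC reaction. All mice were 10 weeks old, received sheep red blood cells on days 0 and 5, and gave spleen cells on day 12, from which B220hi PNAhi CD95hi cells were sorted. The labels give 1 animal per array, whereas the text on the series' design mentions pools of spleen cells, and p-values measure only the spread between these arrays. Recombination happens in the GC B cells themselves, so cells that escaped it can remain in a KO sort. The sources used here do not give sex, litter or array batch. Xist signals differed within every group. They were 34.2 on WT array 1, 23.2 and 66.1 on HET arrays 1 and 2, and 40.8 on KO array 3, against 6828 to 8322 on the other arrays.

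Superoxide dismutases turn superoxide into hydrogen peroxide, in the cytosol (SOD1) and in the mitochondrial matrix (SOD2). Catalase, peroxiredoxins and glutathione peroxidases then remove peroxides, and thioredoxin recycles the peroxiredoxins with electrons from NADPH. FOXO factors are forkhead proteins that leave the nucleus when AKT phosphorylates them, and they are known in other cell types to activate Sod2, Cat and further genes of this system. The question here was how these genes were expressed in GC B cells when Foxo1 was deleted.

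The sequences of 4 promoters are shown because they bear on this question: Gpx4, the member that fell in KO, Txnip, the member with a forkhead motif near its start, and Sod2 and Cat, 2 genes known as FOXO targets elsewhere. Each holds the 250 bases before a transcription start in RefSeq (GRCm38.p6), written 5′ to 3′ on the strand of the gene. Capitals mark matches on either strand to the motifs searched.
Gpx4 (chr10:80053315-80053564, plus strand, 1 of 4 listed starts): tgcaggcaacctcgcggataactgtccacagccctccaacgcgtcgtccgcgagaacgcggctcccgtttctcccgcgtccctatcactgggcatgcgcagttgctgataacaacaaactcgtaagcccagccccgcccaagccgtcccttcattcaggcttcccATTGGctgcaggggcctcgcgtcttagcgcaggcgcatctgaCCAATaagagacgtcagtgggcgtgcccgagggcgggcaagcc
Txnip (chr3:96557707-96557956, plus strand): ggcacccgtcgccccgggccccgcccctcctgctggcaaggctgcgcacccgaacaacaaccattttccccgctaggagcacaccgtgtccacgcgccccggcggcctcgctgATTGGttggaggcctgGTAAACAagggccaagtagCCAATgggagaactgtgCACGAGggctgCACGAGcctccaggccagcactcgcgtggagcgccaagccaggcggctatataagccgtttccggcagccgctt
Sod2 (chr17:13007589-13007838, plus strand): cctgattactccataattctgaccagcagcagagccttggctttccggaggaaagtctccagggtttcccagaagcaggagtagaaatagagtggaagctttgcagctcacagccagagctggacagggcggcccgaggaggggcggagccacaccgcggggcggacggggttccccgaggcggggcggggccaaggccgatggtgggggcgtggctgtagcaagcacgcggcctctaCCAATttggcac
Cat (chr2:103485154-103485403, minus strand): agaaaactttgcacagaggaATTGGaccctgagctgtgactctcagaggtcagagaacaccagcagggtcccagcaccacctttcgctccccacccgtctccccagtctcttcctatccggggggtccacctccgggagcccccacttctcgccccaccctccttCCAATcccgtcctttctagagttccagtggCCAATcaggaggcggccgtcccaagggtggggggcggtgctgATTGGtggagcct
The forkhead motif GTAAACA was found in 1 of the 9 genes, Txnip, 121 bases before the start. It was present in 3.17% of all 32851 windows of this length in the table. The related forkhead form CAAAACA was found in 0 of the 9 genes and in 5.56% of all windows. The CCAAT box, seen as CCAAT or, on the opposite strand, ATTGG, occurred in 5 of the 9 genes (Sod1, Sod2, Cat, Gpx4 and Txnip) and in 33.8% of all windows. An antioxidant response element, TGACNNNGC, lay in the Sod1 window 56 bases before the start, on the opposite strand, and in 10.2% of all windows. The Txnip window also held CACGAG, a part of the carbohydrate response element, 85 and 74 bases before the start, and 5.37% of all windows held it. The 9 genes had 12 windows, so counts by gene and shares of windows are not on the same footing. A match says only that these letters are there, and binding was not measured. Bases outside these windows were not searched, so the lack of a match says nothing of sites elsewhere.

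Foxo1 itself followed the labels on its brighter probe sets. Its brightest probe set had signals of 5432, 5300 and 5616 in WT, 3633, 3581 and 3479 in HET, and 983, 1392 and 727 in KO. The mean was 65.4% of WT in HET and 19.0% in KO, and the KO vs WT log2 change was -2.45 (SE 0.16; limma adjusted p = 2.31e-06). Whether its probes lie inside the floxed segment was not analysed here.

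Across the 9 genes, 1 fell in KO against WT, 0 rose and 8 did not pass the test, a limma adjusted p under 0.05 over all 10331 genes tested. The gene that fell was Gpx4. The share of members called was 11.1%, beside 11.9% of all genes tested (6.10% rose and 5.83% fell). The median log2 change of the 9 genes was -0.052, with 7 of 9 below 0, against a median of 0.011 over all genes, of which 47.7% lay below 0. At an unadjusted p under 0.05 there were 3 members, Gpx4, Txn1 and Prdx3. The share of all genes at that unadjusted threshold was not counted. Neither this count nor the later ones like it can therefore be read as an excess, or as the lack of one. Of the 19 kept probe sets, 5 had every KO array below every WT array and 1 had every KO array above, beside 11.9% below and 14.9% above among all kept probe sets (26.7% in either direction). In bulk RNA of sorted cells, fewer cells of a type and less RNA per cell cannot be told apart.

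**Figure D1:**
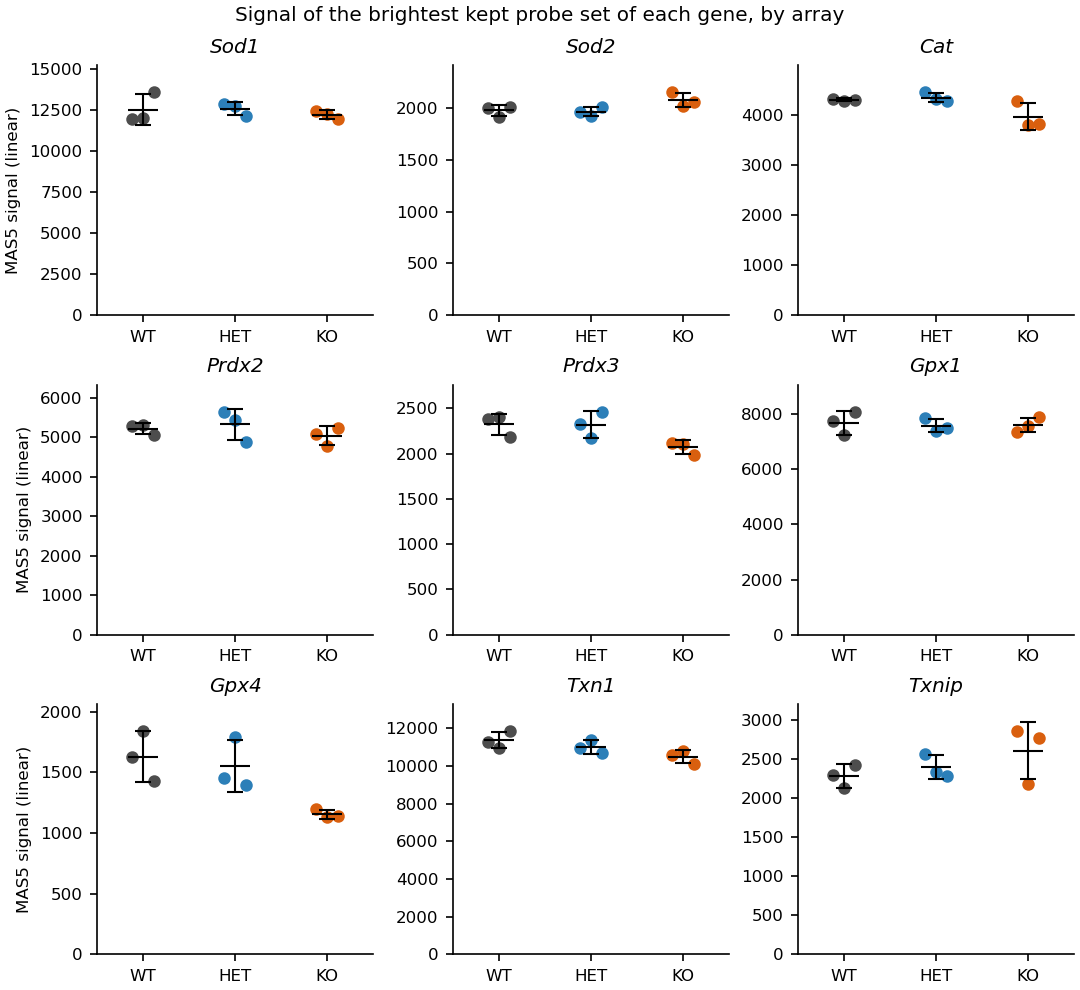
MAS5 signal (linear scale, starting at 0) of the brightest kept probe set of each of the 9 genes, with 1 point per array, the horizontal line at the group mean and the bars at 1 SD (n = 3). The Gpx4 panel shows all KO arrays, between 1129 and 1197, below all WT and HET arrays, while in the panels of Sod1, Cat, Prdx2, Gpx1 and Txnip the KO and WT arrays overlap.

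Sod1, the cytosolic copper and zinc dismutase, was bright in every array. Its signals were 11942, 11978 and 13571 in WT, 12839, 12744 and 12108 in HET, and 12446, 12207 and 11906 in KO. The KO range lay almost wholly inside the WT range, and the groups overlapped. The KO vs WT change was -2.33% (95% interval -9.77 to 5.73; log2 -0.034, SE 0.053; limma adjusted p = 0.745). HET differed from WT by 0.68% (interval -6.99 to 8.98).

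The other Sod1 probe sets gave values of their own. The second brightest had 9844, 9868 and 10763 in WT, 10405, 10222 and 10039 in HET, and 9422, 10103 and 9798 in KO, with overlapping groups (KO vs WT log2 -0.055, SE 0.047). The third had 789, 851 and 883 in WT, 784, 875 and 1006 in HET, and 1059, 907 and 691 in KO, so that its KO arrays spanned those of both other groups (log2 0.055, SE 0.14). The fourth, near the array median, ranged from 31.4 to 65.7, with 2 WT arrays and 1 HET array below the median of their array. The fifth did not pass the filter and reached at most 9.76 in any array.

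Sod2, the manganese dismutase of mitochondria, gave probe sets that differed in direction. The brightest had 2003, 1916 and 2012 in WT, 1960.0, 1927 and 2012 in HET, and 2155, 2024 and 2054 in KO. All 3 KO arrays lay above all 6 others, by a small margin. The change was 5.07% in KO (95% interval -3.95 to 14.9; limma adjusted p = 0.500) and -0.55% in HET (interval -9.09 to 8.79).

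The second Sod2 probe set had 1711, 1799 and 1911 in WT, 1678, 1883 and 1835 in HET, and 1773, 1423 and 1749 in KO. The third had 925, 1004 and 899 in WT, 936, 952 and 942 in HET, and 886, 727 and 927 in KO. On both, KO array 2 was the lowest of all 9, and KO overlapped WT. Their KO vs WT log2 changes were -0.14 (SE 0.09; limma adjusted p = 0.411) and -0.16 (SE 0.10; adjusted p = 0.368), so Sod2 had no single direction across its kept probe sets. The fourth, below the median of every array at 2.96 to 32.6, was not tested.

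Cat, the peroxisomal enzyme that splits hydrogen peroxide, had 4326, 4275 and 4304 in WT, 4456, 4312 and 4271 in HET, and 4281, 3796 and 3814 in KO on its brightest probe set. KO arrays 2 and 3 lay below all others, while KO array 1 fell among the WT arrays. The KO change was -7.99% (95% interval -15.5 to 0.214; log2 -0.12, SE 0.06; limma adjusted p = 0.206), and the HET change was 1.02% (interval -7.26 to 10.0).

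The second Cat probe set had 1882, 2029 and 1753 in WT, 1703, 1595 and 1869.9 in HET, and 1624, 1588 and 1441 in KO. Here every KO array lay below every WT array, and HET overlapped both. The log2 change was -0.28 in KO (SE 0.08; limma adjusted p = 0.0589 over all kept probe sets). Cat passed the test where the gene was represented by the mean log2 value over its probe sets (log2 -0.20, adjusted p = 0.0479), by probe sets without a suffix (-0.28, adjusted p = 0.0428), or after centring each array on its median (-0.24, adjusted p = 0.0182). Its call therefore turned on the probe set and on the scaling.

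Prdx2, a cytosolic peroxiredoxin that is very abundant in red blood cells, had 5281, 5313 and 5056 in WT, 5653, 5444 and 4877 in HET, and 5091, 4775 and 5241 in KO. The 3 groups overlapped, and HET held both the highest and the second highest array. The change was -3.51% in KO (95% interval -12.1 to 5.92; limma adjusted p = 0.661) and 1.90% in HET (interval -7.18 to 11.9). Its second probe set had 874, 1004 and 991 in WT, 1186, 1074 and 1117 in HET, and 991, 878 and 1090.2 in KO. It was the only 1 of the 19 kept member probe sets on which HET and WT did not overlap, with HET above WT, beside 5.02% above and 4.75% below among all kept probe sets (9.76% in either direction), and its HET vs WT log2 change of 0.24 (SE 0.10) did not pass the test (adjusted p = 0.999).

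Prdx3, the mitochondrial peroxiredoxin, had 1 kept probe set, with 2384, 2401 and 2189 in WT, 2328, 2169 and 2465 in HET, and 2121, 2111 and 1988 in KO. All KO arrays lay below all WT and HET arrays, and WT and HET overlapped. The KO change was -10.8% (95% interval -19.5 to -1.10; log2 -0.16, SE 0.07). It did not pass the test over all genes (unadjusted p = 0.0326; limma adjusted p = 0.148). HET differed from WT by -0.22% (interval -9.97 to 10.6). After centring each array on its median, Prdx3 passed (log2 -0.28, adjusted p = 0.0123); that scaling moved the median of all genes to -0.11.

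Gpx1, the cytosolic glutathione peroxidase, had 7732, 7225 and 8091 in WT, 7845, 7384 and 7505 in HET, and 7367, 7557 and 7886 in KO. The ranges of the 3 groups coincided almost fully. The change was -0.97% in KO (95% interval -8.51 to 7.19; limma adjusted p = 0.904) and -1.30% in HET (interval -8.81 to 6.84).

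Gpx4 reduces lipid hydroperoxides inside membranes and is the main brake on ferroptosis. Its signals were 1624, 1841 and 1427 in WT (1630.4 ± 207, SD, n = 3), 1456, 1794 and 1396 in HET (1549 ± 215), and 1197, 1129 and 1138 in KO (1155 ± 37). All 3 KO arrays lay below all WT and HET arrays, whereas WT and HET overlapped. The mean KO signal was 70.8% of that in WT.

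In KO against WT, Gpx4 fell by 0.49 in log2 units (SE 0.11; limma adjusted p = 0.0104), a change of -28.8% (95% interval -39.4 to -16.3). The HET vs WT change was -5.07% (interval -19.2 to 11.6; adjusted p = 0.998). Against HET, the KO change was -25.0% (interval -36.2 to -11.8; log2 -0.41, SE 0.11; adjusted p = 0.0308). The HET mean was 0.17 above the WT and KO midpoint in log2 units, which did not pass the test (adjusted p = 0.567).

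The second Gpx4 probe set gave 529, 566 and 459 in WT, 538, 541 and 492 in HET, and 335, 329.7 and 443 in KO. Again no KO array reached a WT or HET array, and the KO mean was 71.3% of WT. Its log2 change was -0.49 in KO vs WT (SE 0.13; limma adjusted p = 0.0370 over all kept probe sets) and -0.51 in KO vs HET (SE 0.13; adjusted p = 0.0380). These 2 Gpx4 probe sets were the only member probe sets called, 2 of 19, beside 8.19% of all kept probe sets in KO vs WT and 6.08% in KO vs HET. In HET vs WT, 0 of 19 member probe sets were called in limma, beside 0.00513% of all kept probe sets, and 2 had an unadjusted p under 0.05, the dimmer ones of Prdx2 (0.0304) and Txn1 (0.0492). The name of the brighter Gpx4 probe set carries the array maker's x_at mark, for probes that can also match other sequences. That of the dimmer Gpx4 probe set carries the a_at mark, for transcripts of the same gene.

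The Gpx4 call in KO vs WT was lost without WT array 2, the highest WT value (log2 -0.40, limma adjusted p = 0.0542). It passed in the other 22 of 23 alternatives in which Gpx4 was tested, with log2 changes between -0.61 and -0.40 over all 23. The KO vs HET call was lost without HET array 2 (log2 -0.30, adjusted p = 0.118) and without KO array 1 (adjusted p = 0.0559), KO array 2 (0.0855) or KO array 3 (0.0684). It was also lost without the variance trend of the model (0.0818) and with arrays blocked by an Xist signal above or below 1000 (0.0515).

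Txn1, which carries electrons to peroxiredoxins and ribonucleotide reductase, had 11296, 10979 and 11859 in WT, 10978, 11400.5 and 10688 in HET, and 10582, 10791 and 10098 in KO. The KO arrays lay below the WT arrays, and HET overlapped both. The KO change was -7.79% (95% interval -14.0 to -1.11; log2 -0.12, SE 0.05; unadjusted p = 0.0265), which did not pass the test over all genes (limma adjusted p = 0.131). The HET change was -3.11% (interval -9.65 to 3.91). Txn1 passed after centring each array on its median (log2 -0.24, adjusted p = 0.0115). A second, dim probe set had 2 arrays of every group below the array median and ranged from 5.44 to 76.5.

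Txnip binds thioredoxin and, as an alpha-arrestin, takes glucose transporters off the cell surface. It had 2299, 2121 and 2426 in WT, 2566, 2327 and 2279.7 in HET, and 2856, 2184 and 2769.9 in KO. KO arrays 1 and 3 were the highest of all 9, and KO array 2 lay among the WT arrays. The KO change was 13.4% (95% interval -1.98 to 31.3; log2 0.18, SE 0.10; limma adjusted p = 0.265), and the HET change was 4.78% (interval -9.46 to 21.3). Without KO array 2, Txnip passed (log2 0.30, adjusted p = 0.0344). Its second probe set had 152, 129.6 and 100.1 in WT, 166, 111 and 128 in HET, and 133, 145 and 244 in KO, with overlapping groups and a log2 change of 0.41 (SE 0.25; adjusted p = 0.357). Txnip, whose promoter sequence held the forkhead motif, was not called in either direction with all arrays in the model. Whether the motif matters for Txnip was not tested.

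**Figure D2:**
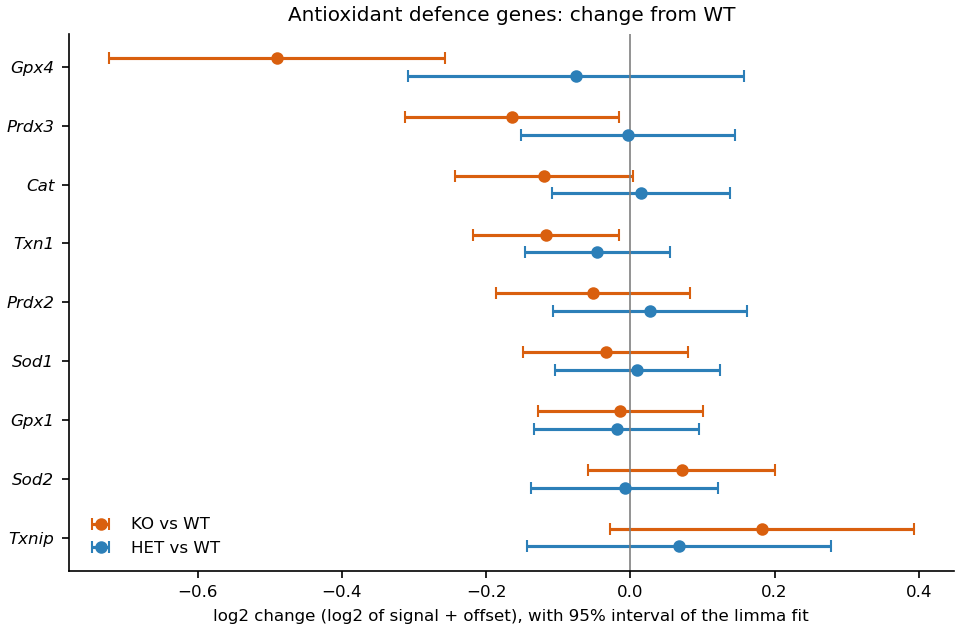
Log2 change from WT of each of the 9 genes in KO (orange) and HET (blue), with the 95% interval of the limma model; the x axis is on the scale of log2(signal + 2.09). The KO intervals of Gpx4, Prdx3 and Txn1 lie wholly below 0, of which only Gpx4 passed the adjusted test, and every HET interval spans 0.

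With 1 floxed allele, no member passed the test. Foxo1 itself did not pass it either (HET vs WT log2 -0.61, SE 0.16, limma adjusted p = 0.919), although all its HET arrays lay below all WT arrays. A gene lowered to that extent can thus go uncalled in this comparison. The HET vs WT log2 changes of the members ranged from -0.075 (Gpx4) to 0.067 (Txnip), with a median of -0.0032 beside 0.0023 over all genes. In limma, 0 of 9 members were called and 0 had an unadjusted p under 0.05, where 0.00968% of all genes, 1 of 10331, were called. That gene, the gene model Gm34303 (log2 4.80, SE 0.14; adjusted p = 9.44e-10), is no member and was chosen after its values were seen. The widest member intervals, those of Gpx4 and Txnip, left room for HET changes between -19.2% and 21.3%, while for Gpx1 the interval ended at -8.81% and 6.84%.

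The KO vs HET comparison shares its arrays with the other 2 comparisons, so it is no independent support for them. In KO against HET, 1 of 9 members fell (Gpx4) and 0 rose, beside 8.99% of all genes called (4.56% up and 4.43% down). The median log2 change was -0.071, with 6 of 9 below 0, against a median of 0.010 over all genes, of which 47.8% lay below 0. Prdx3 changed by -10.6% (95% interval -19.3 to -0.88; limma adjusted p = 0.176) and Cat by -8.92% (interval -16.4 to -0.80; adjusted p = 0.173), neither of which passed. Of the 19 kept probe sets, 4 had all KO arrays below all HET arrays (both of Gpx4, that of Prdx3 and the third of Sod2) and 1 had them above (the brightest of Sod2), beside 11.4% below and 13.1% above among all kept probe sets (24.5% in either direction). The midpoint between WT and KO was set against HET, and 0 of 9 members lay off it by an adjusted p under 0.05 in limma (0 also at an unadjusted p under 0.05), beside 0.997% of all genes.

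**Figure D3:**
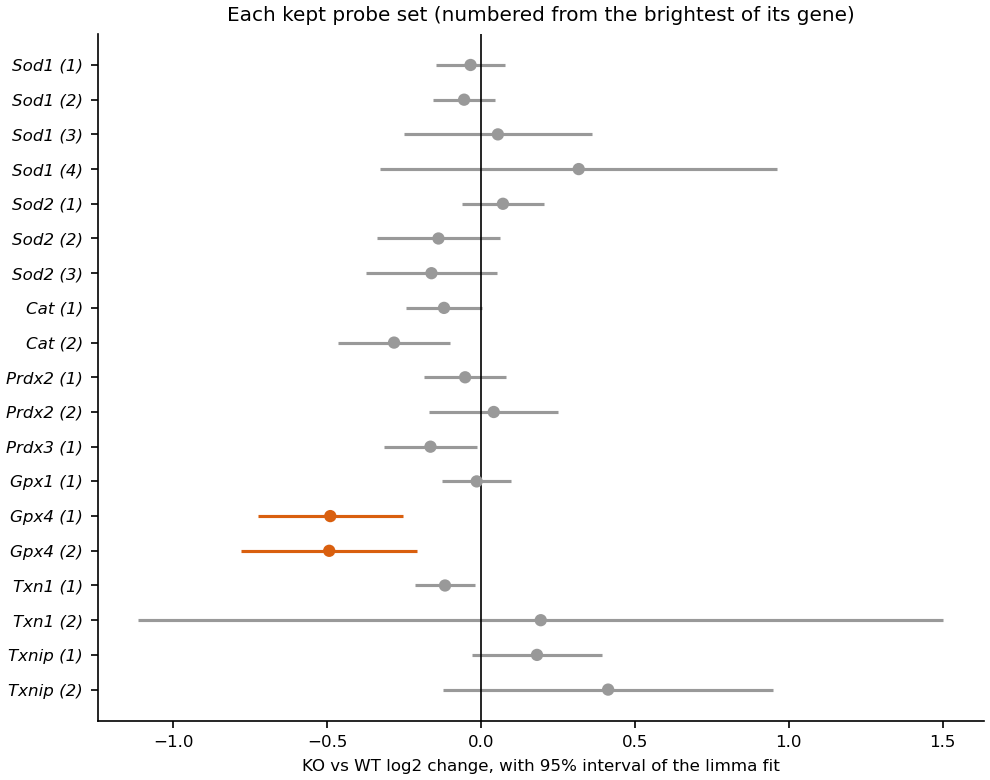
KO vs WT log2 change of each of the 19 kept probe sets of the 9 genes, numbered from the brightest of each gene, with 95% intervals of the limma model; orange marks an adjusted p under 0.05. The 2 Gpx4 probe sets lie at -0.49 each, the 3 Sod2 probe sets fall on both sides of 0, and the dim second Txn1 probe set has the widest interval.

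The genes around the 9 were read from 9 lists of related functions, which held 120 genes, 104 with a probe set of their own and 84 tested. In KO against WT, 3 of the 84 rose and 6 fell, 10.7% beside the 11.9% of all genes. In HET against WT, 0 of the 84 were called in limma, and 1 had an unadjusted p under 0.05. In KO against HET, 2 rose and 3 fell, 5.95% beside 8.99% of all genes.

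Other members of the enzyme families gave 0 calls among 5 tested genes (2 at an unadjusted p under 0.05 in limma), with a median KO vs WT log2 change of 0.085. The smallest p in this list was that of Gpx7, a glutathione peroxidase relative of the endoplasmic reticulum, which lay below the array median on all WT and HET arrays and above it on all KO arrays. Its signals were 42.2, 36.9 and 28.9 in WT, 32, 41.1 and 43.3 in HET, and 88.5, 66.5 and 52.3 in KO (limma adjusted p = 0.0663). It entered the test only because its KO arrays passed the filter, so its p-values, here and in the alternative below, are no support for a rise in KO. Without the variance trend Gpx7 passed (log2 0.89, adjusted p = 0.0353), the list then giving 1 call, and with arrays centred on their medians the list gave 2 falls, Prdx4 (log2 -0.32, adjusted p = 0.0125) and Txn2 (-0.26, adjusted p = 0.0496), which were chosen after their values were seen.

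Among 12 genes of thioredoxin, glutaredoxin and peroxiredoxin recycling, 1 rose and 0 fell in KO, and the median log2 change was -0.017. The gene that rose was Txnrd1, the reductase that passes electrons from NADPH to thioredoxin. It had 2409, 2351 and 2524 in WT, 2477, 2365 and 2454 in HET, and 3004, 2913 and 2744 in KO. All KO arrays lay above all others, by 0.25 over WT on the log2 scale (SE 0.06; limma adjusted p = 0.0169) and by 0.25 over HET (adjusted p = 0.0228). The KO vs WT call was lost without WT array 1, WT array 2 or KO array 1 (adjusted p from 0.0548 to 0.0728) and with arrays centred on their medians (log2 0.13, adjusted p = 0.185).

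The 15 tested genes of glutathione synthesis, recycling and conjugation gave 3 falls and 0 rises in KO, with a median of -0.062. Mgst2, a microsomal glutathione transferase, had 245, 321 and 267 in WT, 228, 238 and 219 in HET, and 119, 123 and 97.5 in KO. Its KO mean was 40.9% of WT, with no overlap (log2 -1.27, SE 0.15; limma adjusted p = 1.91e-04). Gstt2, a theta-class glutathione transferase, had 859, 1111 and 988 in WT, 843, 911 and 841 in HET, and 489, 534 and 443 in KO. Its KO mean was 49.5% of WT, again with no overlap (log2 -1.01, SE 0.11; adjusted p = 7.43e-05). Both also fell against HET (adjusted p = 0.00135 and 4.43e-04), and both KO vs WT calls passed in all 24 alternatives. These 2 enzymes attach glutathione to other molecules rather than make it.

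Gclc, the catalytic subunit of the rate-limiting step of glutathione synthesis, had 763, 786 and 809 in WT, 654, 719 and 812 in HET, and 616, 666 and 508 in KO. KO lay below WT and overlapped HET. Its log2 change in KO vs WT was -0.41 (SE 0.11; limma adjusted p = 0.0369). The call was lost in 7 of 24 alternatives, among them the omission of each WT array (adjusted p from 0.0712 to 0.115), of KO array 1 (0.0632) and of KO array 3 (0.105).

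Of 8 tested genes of NADPH supply, 1 fell and 0 rose in KO, with a median of -0.11. Idh1, the cytosolic isocitrate dehydrogenase that yields NADPH, had 2486, 2162 and 2322 in WT, 2377, 2253 and 2306 in HET, and 1762, 1681 and 1706 in KO. The KO arrays lay far below all others, at 73.9% of the WT mean (log2 -0.43, SE 0.07; limma adjusted p = 0.00103). The KO vs HET change was the same in size (log2 -0.43, adjusted p = 0.00138), and the KO vs WT call passed in all 23 alternatives in which it was tested.

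In the NRF2 list, 1 of 12 tested genes fell and 0 rose, with a median of -0.055. Nfe2l2, which encodes NRF2, the activator of many antioxidant genes, had 1157, 1405 and 1178 in WT, 985, 972 and 1166 in HET, and 875, 1063 and 974 in KO. KO lay below WT and overlapped HET (log2 -0.36, SE 0.11; limma adjusted p = 0.0457). The call was lost in 10 of 24 alternatives, 7 of them the omission of 1 array (all but HET array 3 and KO array 2; adjusted p from 0.0517 to 0.183), and the mean log2 change over its probe sets was -0.033 (adjusted p = 0.898).

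Among 10 sestrins and stress genes described as FOXO targets elsewhere, 1 fell and 0 rose, with a median of -0.015. Pink1, a kinase that marks damaged mitochondria for removal, had 1678, 2141 and 1746 in WT, 1651, 1672 and 1732 in HET, and 1051, 1356 and 1508 in KO. KO lay below both other groups (log2 -0.51 against WT, SE 0.12; limma adjusted p = 0.0165), but the KO vs HET change did not pass (adjusted p = 0.0735). The KO vs WT call was lost in 4 of 24 alternatives, among them the omission of WT array 2 (adjusted p = 0.0789) and the use of probe sets without a suffix (log2 -0.24, adjusted p = 0.285).

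A list of Txnip relatives and glucose genes gave 0 calls among 8 tested genes, which were the alpha-arrestins Arrdc1, Arrdc2 and Arrdc3, the glucose-sensing factors Mlx and Mlxip, and Slc2a1, Hif1a and Ddit4 (0 were called also at an unadjusted p under 0.05 in limma). The median was -0.0022. The smallest p was that of Slc2a1, the glucose transporter GLUT1, with 3336, 2936 and 3256 in WT, 3331, 3272 and 3366 in HET, and 3367, 3412 and 3502 in KO. Its KO arrays lay just above all others (log2 0.11, SE 0.06; limma adjusted p = 0.262), and its sign turned with arrays centred on their medians (-0.0083). Selenoprotein synthesis, which supplies both glutathione peroxidases, likewise gave 0 calls among 7 tested genes (2 at an unadjusted p under 0.05). Its smallest p was that of Sepsecs, an enzyme that makes selenocysteine on its transfer RNA (log2 0.23, SE 0.09; adjusted p = 0.134).

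NADPH oxidase parts, a source of superoxide rather than a defence against it, gave 2 rises and 0 falls among 7 tested genes, with a median of -0.020. Ncf1, the organizer subunit p47phox, had 1655, 1965 and 1610.0 in WT, 1969.7, 2097 and 1775 in HET, and 2270.3, 2354 and 2646 in KO. All KO arrays lay above all others, and Ncf1 rose by 0.48 over WT (SE 0.09; limma adjusted p = 0.00513), a call kept in all 24 alternatives. Its KO vs HET change of 0.32 did not pass (adjusted p = 0.0533). Ncf4, the subunit p40phox, had 1660.4, 1795 and 1651 in WT, 1944, 1737 and 1658 in HET, and 2029, 2144 and 2212 in KO. It rose by 0.32 over WT (SE 0.07; adjusted p = 0.0140) and by 0.26 over HET (adjusted p = 0.0479). The KO vs WT call was lost without WT array 1 (0.0512) or WT array 3 (0.0611) and with arrays centred on their medians (log2 0.20, adjusted p = 0.0885).

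**Figure D4:**
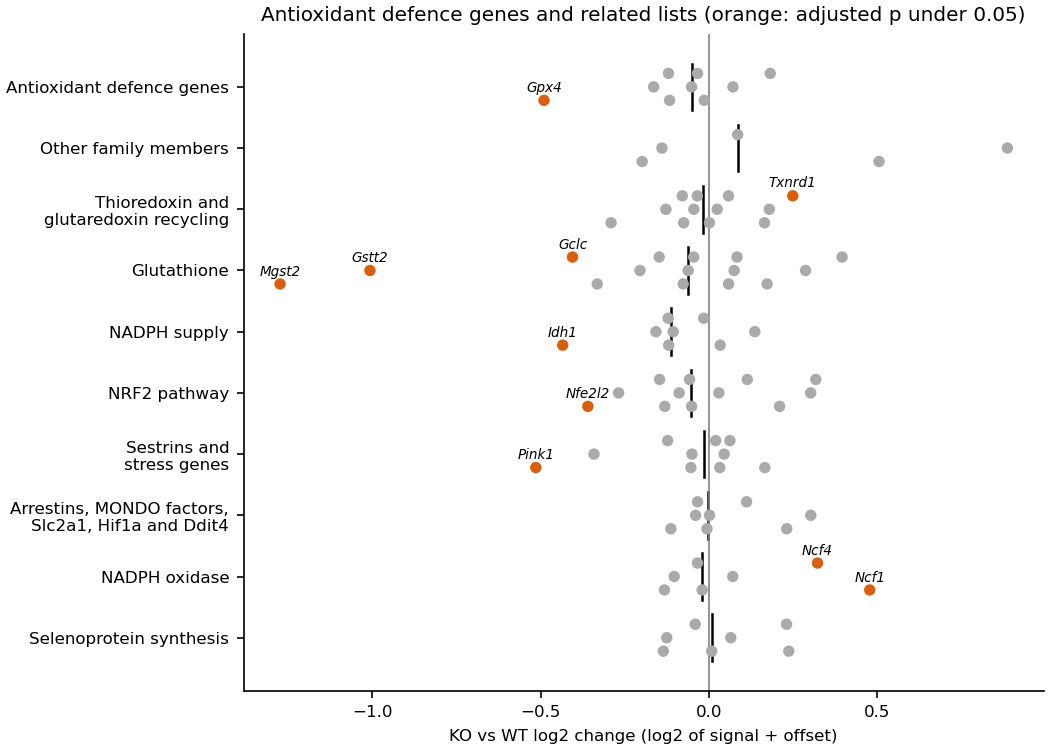
KO vs WT log2 change, on the scale of log2(signal + 2.09), of the 9 antioxidant defence genes and of the tested genes of 9 related lists, with 1 point per gene, a vertical bar at the median of each list and orange for an adjusted p under 0.05 in limma. The orange points are Gpx4 among the 9 and Txnrd1, Mgst2, Gstt2, Gclc, Idh1, Nfe2l2, Pink1, Ncf1 and Ncf4 in the lists, and the list medians lie between -0.11 and 0.085.

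Markers of other cells were read beside these values. Of 13 erythroid and platelet markers, 8 lay below the array median in every array, among them Hba-a1 (0.73 to 3.53), Klf1 and Slc4a1, and 1 of 3 tested genes, Car2, fell in KO (log2 -0.77, SE 0.21; limma adjusted p = 0.0316). The summed signal of the list was 5811 to 6387 in WT, 5691 to 6102 in HET and 5478 to 5659 in KO, nearly all of it from Tfrc. Without Tfrc, which dividing cells express as well, it was 378 to 399 in WT, 416 to 473 in HET and 269.9 to 399.6 in KO. The myeloid list summed to 9597 to 12260 in WT, 7519 to 12178 in HET and 11645 to 12428 in KO, with 8 of 21 markers below the median everywhere, and most of it came from Ctss, which B cells express as well. Without Ctss, it was 845 to 1905 in WT, 1139.9 to 3058 in HET and 2458 to 3347 in KO, so that KO lay above WT and overlapped HET. In this list 4 of 12 tested genes rose in KO (Lyz1 by 2.13, Lyz2 by 1.78, Csf1r by 2.46 and Cd68 by 0.67 on the log2 scale), with a list median of 0.73. The oxidase parts Ncf1 and Ncf4, which myeloid cells express as well, also rose. Cybb (log2 -0.020) and Cyba (-0.13) did not, and of the 7 oxidase parts tested 4 lay below 0 and 3 above. The defining markers of the sorted cells were present: all 13 GC B cell markers reached the array median in at least 3 arrays, and their sum was 73003 to 78919 in WT, 75678 to 76020 in HET and 73093 to 75139 in KO. Single markers of this list changed in KO against WT: Fas, Ebf1 and Ptprc rose and Rgs13, Neil1 and Gcsam fell, with Gcsam the furthest (log2 -1.36, SE 0.12; limma adjusted p = 1.47e-05).

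The summed signals of KO lay outside the WT range for the plasma cell, naive B cell, cell cycle and dendritic cell lists. They overlapped it for the T cell, NK cell and stromal lists. Plasma cell markers summed to 38674 to 39686 in WT, 38480 to 41338 in HET and 44313 to 48049 in KO, with 6 of 13 tested genes called higher and 1 of 14 markers below the median everywhere. Naive, follicular and marginal zone markers summed to 14672 to 15294 in WT, 15617 to 16440 in HET and 18388 to 20530 in KO, with 5 of 11 called higher and 2 lower. Cell cycle genes summed to 90798 to 96716 in WT, 90411 to 91556 in HET and 84734 to 85883 in KO, with 4 of 19 called lower. T cell markers summed to 362 to 412 in WT, 312 to 509 in HET and 273 to 410 in KO, and 9 of 14 were below the median everywhere. Dendritic cell markers summed to 1417 to 1559 in WT, 1689.8 to 1743 in HET and 1652 to 2006 in KO, with 5 of 10 below the median everywhere and 1 of 4 tested genes, Sirpa, called higher in KO (log2 0.65, SE 0.10; limma adjusted p = 0.00145). Without Sirpa, the brightest of the dendritic list, that sum was 896 to 948 in WT, 1008.5 to 1032 in HET and 858 to 1020 in KO, so that KO overlapped both. NK cell markers summed to 298 to 425, 416 to 449 and 377 to 546, with 6 of 8 below. Stromal markers summed to 403 to 499.7 in WT, 396 to 466 in HET and 452 to 513 in KO, with 5 of 8 below. The part of these cell types and states in the values of Gpx4, Idh1, Txnrd1, Mgst2, Gstt2, Ncf1 and the other genes was not tested.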

How the data were processed

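The deposited table held 1 intensity (signal, linear scale) per probe set and array, which the authors made with MAS5, per the submitters' processing notes (its version was not given there). Per the labels' protocols, a NuGEN kit amplified the RNA ahead of labelling. After trimming 2% at each end, the mean signal was 500.0 on all 9 arrays; array medians ran from 42.9 to 48.0, highest in KO. The number of arrays limits the precision.

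Signals were analysed as log2(signal + 2.09), the offset being the 10th percentile of all signals, so changes of dim genes are understated. Of 45101 probe sets, 34945 carried 1 gene symbol. Those at or above their array's median in at least 3 arrays were kept (19479), and the brightest stood for its gene (10331 genes). The 9 arrays entered 1 linear model per gene in limma 3.58.1 (lmFit, eBayes with trend; R 4.3.3), two-sided, with Benjamini-Hochberg adjustment over all genes, or over all kept probe sets, and a threshold of 0.05. All intervals are 95% intervals of these models.

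Members and lists were chosen with earlier results of these data known. Named genes were all members and Foxo1, and of each list the called genes (up to 4), or else the one with the smallest p. All 9 members matched the RefSeq promoter table (GRCm38.p6), and the CACGAG motif was chosen with the Txnip sequence in view. Alternatives changed the offset, scaling, filter, probe set choice, model, a block for Xist level and the arrays included. The model was tested on simulated data.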

Additional observations from a re-analysis of the deposited data

How the results depend on the processing

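Under 24 alternatives, Foxo1, Mgst2, Gstt2 and Ncf1 kept their direction and call in KO vs WT. Sign changes of uncalled values that stayed within 1 SE of the reported value were not counted as reversals. Centring each array on its median gave 2080 called genes in KO vs WT (397 higher and 1683 lower, against 630 and 602) and 4 members (Gpx4, Cat, Prdx3 and Txn1), and 3 members in KO vs HET; it turned Sod2 to -0.049 and Slc2a1 to -0.0083 in KO vs WT, and Sod2 to -0.018 and Gpx1 to -0.092 in KO vs HET. Centring on the tested genes, chosen after seeing the data, gave 1225 genes and 1 member in KO vs WT. With the log2 values of all kept probe sets of a gene averaged, dim ones included, 2 members (Gpx4 and Cat) were called in KO vs WT, where Sod1 turned to 0.071, Sod2 to -0.076 and Txn1 to 0.039. Under the same choice Cat turned to -0.059 in HET vs WT, Sod2 to -0.072 and Txn1 to 0.72 in KO vs HET, and their distances from the midpoint to 0.034 and -0.70. Without suffixed probe sets, 7 members were tested, not Gpx4 or Prdx2, with 0 called in KO vs HET, and Cat turned to -0.13 in HET vs WT. Without the variance trend, 0 members were called in KO vs HET and 31 genes lay off the midpoint. Splitting arrays at an Xist signal of 1000, chosen after seeing the data, also left 0 in KO vs HET. HET vs WT gave 3 genes with robust eBayes, with array weights and with only its 2 groups, and 2 with the Xist block. That block was set at the array median and put HET array 2 with the high arrays. With no filter, 1 member probe set was called in KO vs WT and 0 in KO vs HET.

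Leaving out 1 array gave 768 to 1183 genes and 0 to 2 members in KO vs WT (770 and 0 without WT array 2, 768 without WT array 3), 1 to 3 genes in HET vs WT, 543 to 895 genes (543 without HET array 2, 606 without HET array 3) and 0 to 1 members in KO vs HET, and 31 to 109 genes off the midpoint. Sod1 ranged from -0.065 to 0.027 in KO vs WT, the latter without WT array 3. The cause of these shifts was not tested. No paired analysis was possible because the numbers in the sample titles are not shared between genotypes and the replicate numbers used here only name arrays. Dim probe sets, near the array median, had the widest intervals.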
